A study of Apis mellifera with 4 samples.

Results

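The hexamerin genes of the honeybee Apis mellifera were followed in whole larvae at 60 hours. Their rows were found by name in the deposited gene table, ignoring case, and 4 of 11156 genes matched, namely Hex70a, HEX70b, Hex70c and Hex110. The queen samples were 2 pools of female larvae raised as queens, grafted just after hatching into queen cells in a hive without a queen. They were compared with 2 pools of female larvae raised as workers, which were not grafted and were placed in a hive with a queen. According to the paper, the queen cells receive royal jelly, and this food sets off queen development. The paper also places the introduction of pollen into worker food at about 60 hours. Caste therefore cannot be told apart from diet, from grafting or from the hive. The larvae of both castes came from colonies headed by queens inseminated with a single drone, from a closed population. RNA-seq counted 50 bp reads on each gene, and the replicates are described as independent biological samples. The exons received between 4949093 and 5476218 reads per sample.

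Hexamerins are insect proteins descended from the oxygen-carrying hemocyanins of arthropods. They are made by the larval fat body, released into the haemolymph as assemblies of like subunits, and taken up again before metamorphosis, when their amino acids are used to build adult tissues. The honeybee genes are named for the size of the subunit, and Hex110 encodes the large one, a protein rich in glutamine. HEX70b, Hex70c and Hex110 are known mainly as larval storage proteins, while Hex70a is known to persist into the pupa and the adult. Hexamerin genes of the honeybee are also known to respond to juvenile hormone and ecdysteroids.

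The 3 Hex70 genes lie side by side on 1 scaffold of the Amel_4.5 assembly. In the deposited positions the region of Hex70a spans NW_003378142:95728-100605, that of HEX70b spans NW_003378142:102347-107141 and that of Hex70c spans NW_003378142:111248-116292. The regions of Hex70a and HEX70b are 1741 bases apart and those of HEX70b and Hex70c are 4106 bases apart, so that the cluster covers 20565 bases. Hex110 lies alone on another scaffold, NW_003378088:2869151-2874110. The regions run past the outer exons, since 137 of the 190 genes with 1 exon have a region exactly 1000 bases longer than that exon. Hex70a has 6 exons with 2278 bases in all, HEX70b 7 exons with 2052 bases, Hex70c 6 exons with 2190 bases and Hex110 8 exons with 3033 bases. Each was annotated with 1 transcript for the deposited counts. The paper also lists alternative transcripts of HEX70b and Hex110 from its sequencing data, and these were not separated here. In the RefSeq annotation of the later assembly Amel_HAv3.1 the order Hex70a, HEX70b, Hex70c is the same, with a lncRNA gene, LOC107964857, between HEX70b and Hex70c.

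All 4 hexamerin genes were lower in queen larvae than in worker larvae. Levels are given first as RPKM, which are exon reads scaled by the exon length of the gene and by the reads on genes in the library, so that genes can be compared. HEX70b had 7181 and 7876 RPKM in queen larvae, against 49340 and 45881 RPKM in worker larvae. Hex110 had 965 and 1120 RPKM in queens, against 21606 and 18848 RPKM in workers. The lowest worker sample was 5.83-fold above the highest queen sample for HEX70b and 16.8-fold above it for Hex110. Hex70c had 353 and 432 RPKM in queens, against 5925 and 5053 RPKM in workers. Hex70a had 197 and 180 RPKM in queens, against 3409 and 2974 RPKM in workers. Within a caste the 2 samples of a gene stayed close to each other beside the distance between the castes.

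**Figure D1:**
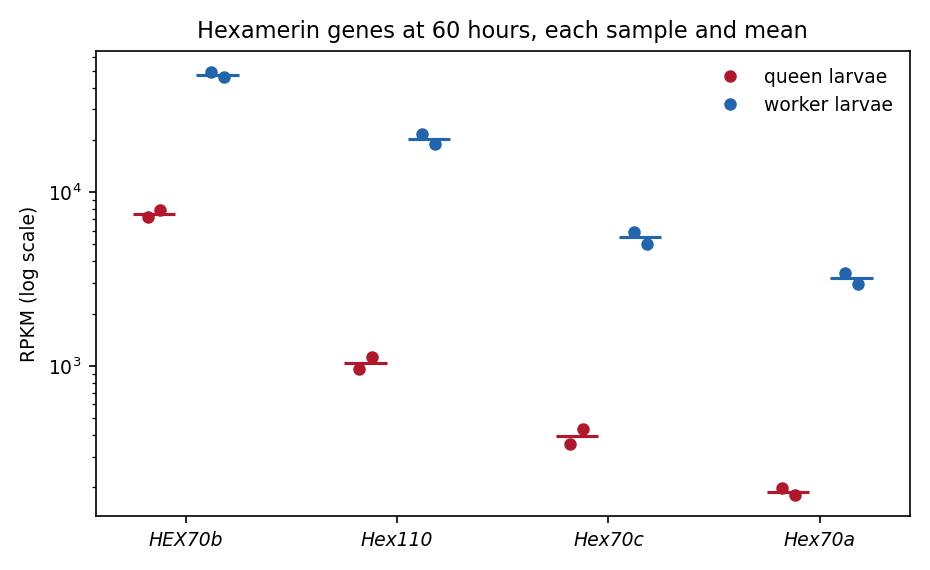
RPKM of the 4 hexamerin genes on a log scale, with 1 point per sample and a line at the mean of each caste (n = 2). Queen samples are red and worker samples blue. HEX70b, the highest, had 7181 and 7876 RPKM in queens against 49340 and 45881 RPKM in workers. Hex70a, the lowest, had 197 and 180 RPKM in queens against 3409 and 2974 RPKM in workers.

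The order of the means was the same in both castes, with HEX70b first, then Hex110, Hex70c and Hex70a. HEX70b averaged 7528 ± 492 RPKM in queens and 47610 ± 2446 RPKM in workers (SD, n = 2 each). Hex110 averaged 1042 ± 110 RPKM in queens and 20227 ± 1951 RPKM in workers. Hex70c averaged 393 ± 55.5 RPKM in queens and 5489 ± 616 RPKM in workers. Hex70a averaged 189 ± 12.1 RPKM in queens and 3191 ± 308 RPKM in workers. Neighbours in this order were apart by more than their spread in each caste. HEX70b had the highest RPKM of all genes in each of the 4 samples. Hex110 ranked 73 and 67 in queens and 2 in both worker samples, and Hex70c ranked 207 and 179 in queens and 6 in both worker samples. Hex70a, the lowest of the 4, ranked 361 and 389 in queens and 8 and 10 in workers. The median coverage of exon bases, a depth that the authors give per gene, had the same order, with 2125.5 and 2152.5 reads for HEX70b in queens against 14562.5 and 13103 reads in workers, and 54 reads for Hex70a in both queen samples against 1056 and 913 reads in workers.

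Queens were tested against workers on exon reads by the quasi-likelihood method of edgeR, after scaling by TMM factors, which set the bulk of genes equal between libraries. Genes with a Benjamini-Hochberg adjusted p below 0.05 over the 7833 genes that passed the filter on low counts were called, and fold changes are queens over workers. With 2 samples per caste an exact permutation test of a single gene cannot give a p below 0.333, and edgeR borrows its estimate of the spread from all genes. All 4 members passed the filter and were called lower in queens, that is higher in workers, as were 942 of the 7833 tested genes, or 12%. The log2 fold change of Hex110 was -4.79 (SE 0.17, adjusted p = 2.5e-04, edgeR), 27.7-fold higher in workers. Hex70a had -4.59 (0.12, adjusted p = 1.7e-04), 24.1-fold higher in workers, and Hex70c had -4.32 (0.17, adjusted p = 3.0e-04), 19.9-fold higher in workers. HEX70b, the gene with the most RNA, had the smallest change of the 4, with -3.17 (0.14, adjusted p = 4.2e-04), 9.03-fold higher in workers. By size these were the 23rd, 28th, 32nd and 51st lowest log2 fold changes of all tested genes, whose median was 0.01. In bulk samples such as these, fewer cells of a type and less RNA per cell cannot be told apart.

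**Figure D2:**
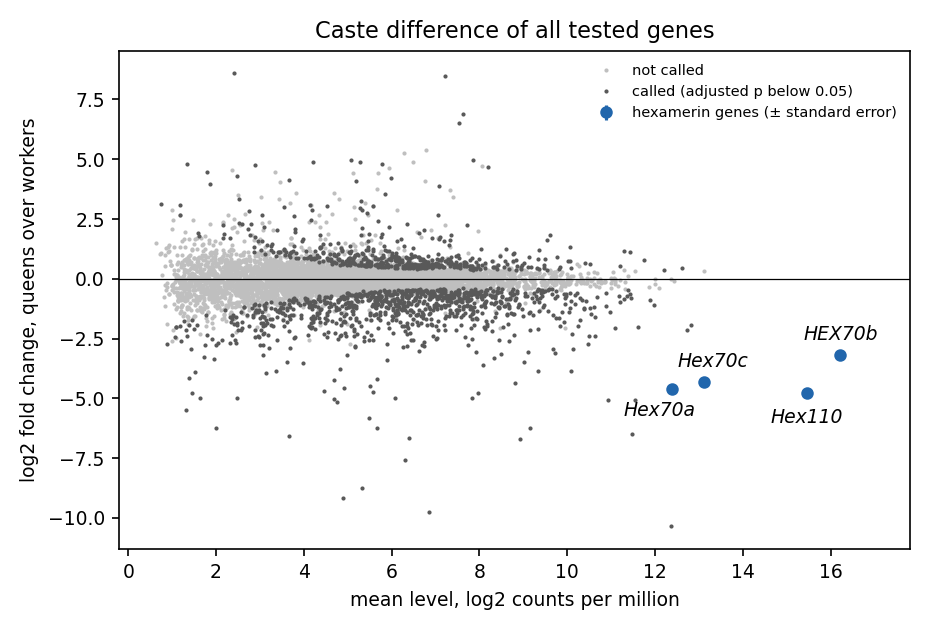
Log2 fold change, queens over workers, of all 7833 tested genes against their mean level in log2 CPM. Called genes are dark, other genes light, and the 4 hexamerin genes are blue with standard errors, lying at the high end of the level axis with log2 fold changes between -4.79 and -3.17.

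The size of the difference depended on the scaling, and its direction did not. With library totals alone the median log2 value over the tested genes moved to 0.55, and 486 genes (6.2%) were called higher in workers, while the log2 fold changes were -4.25 for Hex110, -4.05 for Hex70a, -3.78 for Hex70c and -2.63 for HEX70b. The number of genes called in the background also rested on the worker samples, since 342 genes (4.37%) were called higher in workers without worker sample 1 and 222 (2.83%) without worker sample 2. All 4 hexamerin genes were called in each of these fits.

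The hexamerin genes took a large part of the worker libraries. Together they received 2.24% (95% Wilson interval 2.23% to 2.25%) and 2.49% (2.48% to 2.51%) of the exon reads in queens 1 and 2, against 21.6% (21.6% to 21.7%) and 20.0% (19.97% to 20.04%) in the worker samples. The intervals cover counting error only, and the shares of the samples of 1 caste lie further apart than these intervals. HEX70b alone held 1.75% and 1.93% of the exon reads in queens, against 11.7% and 11.1% in workers. Hex110 held 0.347% and 0.405% in queens, against 7.56% and 6.76% in workers. Hex70c held 0.0918% and 0.113% in queens, against 1.5% and 1.31% in workers. Hex70a held 0.0533% and 0.0489% in queens, against 0.895% and 0.801% in workers.

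The make-up of the hexamerin RNA also differed between the castes. HEX70b made up 82.6% and 82.0% of the summed hexamerin RPKM in queens, against 61.5% and 63.1% in workers. Hex110 made up 11.1% and 11.7% in queens, against 26.9% and 25.9% in workers. Hex70c made up 4.06% and 4.49% in queens, against 7.38% and 6.95% in workers. Hex70a made up 2.27% and 1.88% in queens, against 4.25% and 4.09% in workers. Queen larvae thus had less of each hexamerin RNA and a larger part of HEX70b in what they had. The shares of a sample add up to its whole, so they are not independent of each other.

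**Figure D3:**
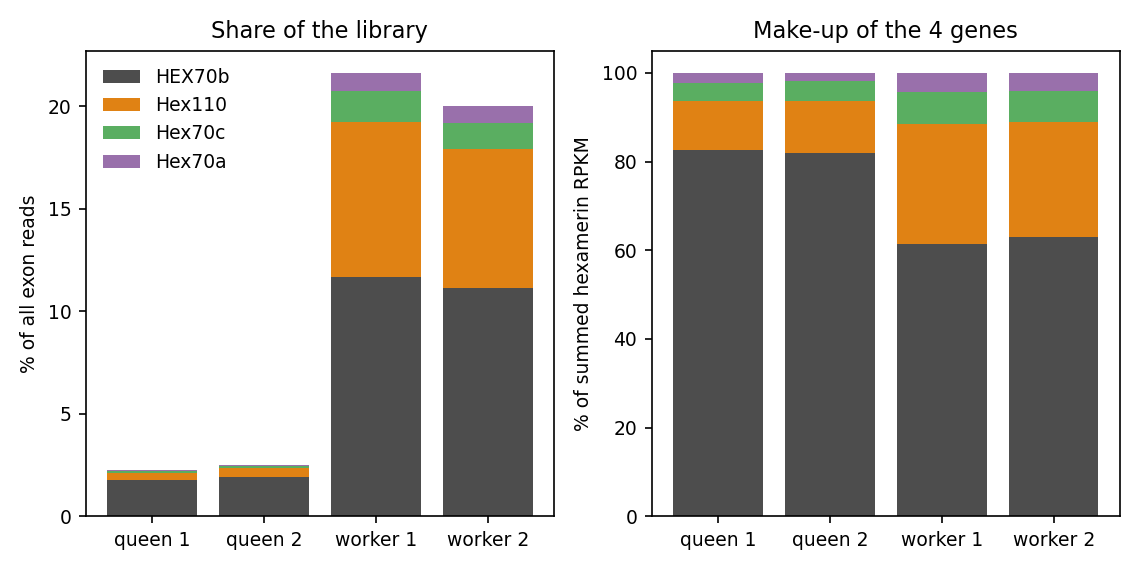
Left, the percentage of all exon reads on each hexamerin gene in each sample, which sum to 2.24% and 2.49% in queens and to 21.6% and 20.0% in workers. Right, the percentage of the summed hexamerin RPKM on each gene, in which HEX70b has 82.6% and 82.0% in queens and 61.5% and 63.1% in workers.

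Ratios between members do not depend on how the libraries are scaled. There are 6 pairs, and HEX70b was compared with each of the others in a fit that used the HEX70b reads of each sample as its library size. The RPKM of HEX70b was 7.44 and 7.03 times that of Hex110 in queens, against 2.28 and 2.43 times in workers. In this fit the log2 change of the ratio of Hex110 to HEX70b was -1.62 (SE 0.15, adjusted p = 5.9e-06), 3.07-fold higher in workers. The RPKM of HEX70b was 36.4 and 43.7 times that of Hex70a in queens, against 14.5 and 15.4 times in workers. The log2 change of the ratio of Hex70a to HEX70b was -1.41 (0.16, adjusted p = 2.8e-05), 2.66-fold higher in workers. The RPKM of HEX70b was 20.3 and 18.2 times that of Hex70c in queens, against 8.33 and 9.08 times in workers. The log2 change of the ratio of Hex70c to HEX70b was -1.15 (0.15, adjusted p = 7.4e-05), 2.21-fold higher in workers. All 3 ratios were called, and 33 of 7832 genes, or 0.421%, were called higher in workers relative to HEX70b. HEX70b is itself among the genes with large differences, so that most other genes are higher in queens relative to it.

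The other 3 pairs were not in this fit and are given as values. Hex110 was 4.89 and 6.22 times as high as Hex70a in queens, against 6.34 and 6.34 times in workers. The mean log2 ratio was 2.46 ± 0.25 in queens and 2.66 ± 0.00004 in workers (SD, n = 2 each), a difference of -0.20 that is within the spread of the queen samples. Hex70c was 1.79 and 2.40 times as high as Hex70a in queens, against 1.74 and 1.70 times in workers, and the difference of 0.27 in log2 is also within the spread of the queens. Hex110 was 2.73 and 2.59 times as high as Hex70c in queens, against 3.65 and 3.73 times in workers. This difference, -0.47 in log2, is larger than the spread of both castes (SD 0.05 in queens and 0.02 in workers), and it was not tested.

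A read that matches several places in the genome can be counted on the wrong member of a gene family, so the reads that match a single place were looked at separately. All exon reads of Hex70a and Hex70c matched a single place, in each of the 4 samples. For Hex110 the share was 97.5% and 97.6% in queens, against 97.5% and 96.5% in workers. For HEX70b it was only 75.8% and 78.2% in queens, against 77.8% and 80.4% in workers. HEX70b thus had 22075 and 20820 exon reads matching several places in queens, against 141616 and 114167 in workers, while Hex70a and Hex70c had none, and the other places that these reads match are not stated. HEX70b held 4.32% and 4.28% of all exon reads matching several places in queens, against 25.5% and 21.0% in workers. The castes overlap in the single-place share of HEX70b itself. Across its exon-exon boundaries the reads matching several places were few, with 0.673% and 0.680% of boundary reads in queens against 0.933% and 0.825% in workers. Reads matching several places were frequent on the edges between introns and exons of HEX70b and Hex110. They made up 74.8% and 59.0% of such HEX70b reads in queens, against 68.8% and 54.7% in workers. For Hex110 they made up 33.6% and 38.1% in queens, against 36.0% and 54.2% in workers, and Hex70a and Hex70c had none.

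Reads that span 2 joined exons come from spliced RNA. HEX70b had 17243 and 18388 exon-exon reads in queens, against 124035 and 113903 in workers. Hex110 had 1895 and 2056 in queens, against 41404 and 34204 in workers. Hex70c had 390 and 542 in queens, against 7530 and 6400 in workers, and Hex70a had 230 and 248 in queens, against 4554 and 3935 in workers. As a share of exon reads these were 18.9% and 19.3% for HEX70b in queens, against 19.4% and 19.5% in workers. They were 10.5% and 10.3% for Hex110 in queens, against 10.0% and 9.65% in workers. The shares of Hex70c (8.14% and 9.72% in queens, 9.19% and 9.33% in workers) and Hex70a (8.26% and 10.2% in queens, 9.29% and 9.37% in workers) overlapped between the castes. The share thus differed far more between HEX70b and the other members than between the castes. HEX70b has 2.92 exon boundaries per kilobase of exon, against 2.31 for Hex110, 2.28 for Hex70c and 2.19 for Hex70a. Divided by this density, the share was 6.46% and 6.60% for HEX70b in queens, against 6.64% and 6.67% in workers. In the other members it ranged from 3.56% (Hex70c, queen 1) to 4.67% (Hex70a, queen 2). Of the single-place exon reads of HEX70b, 24.8% and 24.5% were exon-exon reads in queens, against 24.7% and 24.1% in workers. The reason for the higher share was not tested. All genes with 2 or more exons together had 16.6% and 16.4% in queens, against 16.3% and 16.3% in workers.

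Reads inside the regions but outside the exons lie on introns and on the flanks of the genes. HEX70b had 1036 and 2314 such reads in queens, against 9162 and 15706 in workers. This is 11.4 and 24.3 per 1000 exon reads in queens, against 14.3 and 26.9 in workers, and sample 2 of each caste had more than sample 1. Hex70c had 14 and 20 in queens, against 128 and 180 in workers, and Hex70a had 11 and 7 in queens, against 116 and 113 in workers. All these reads of Hex70a and Hex70c matched a single place. Hex110 had 82 and 129 in queens, against 2678 and 3842 in workers, but only 3 and 9 of them in queens and 75 and 91 in workers matched a single place. The 4 genes had few intron and flank reads for their exon reads, between 1.56 and 26.9 per 1000. All genes with 2 or more exons together had 148 and 152 per 1000 in queens and 121 and 148 per 1000 in workers. These values are not scaled by the length of introns and flanks, so they do not compare shares of unspliced RNA.

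The intron and flank reads were tested in the same way over 4905 genes, of which 516, or 10.5%, were called higher in workers. All 4 members were among them. For Hex110 the log2 fold change was -5.27 (SE 0.28, adjusted p = 1.5e-05), which rests on reads that match several places, and -3.99 (0.40, adjusted p = 0.0029) with single-place reads alone, over 3437 genes with 9.72% called higher in workers. Hex70a had -3.98 (0.29, adjusted p = 7.1e-05), Hex70c had -3.49 (0.28, adjusted p = 9.1e-05) and HEX70b had -3.20 (0.37, adjusted p = 6.2e-04). Leaving out a queen sample moved the value of HEX70b to -2.72 (without queen sample 1) and to -3.92 (without queen sample 2), and in the second case it was lower than those of Hex70a (-3.71) and Hex70c (-3.79). Without worker sample 1 the genes called higher in workers in this fit numbered 240 (4.89%), and without worker sample 2 147 (3%), with all 4 members called in both.

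**Figure D4:**
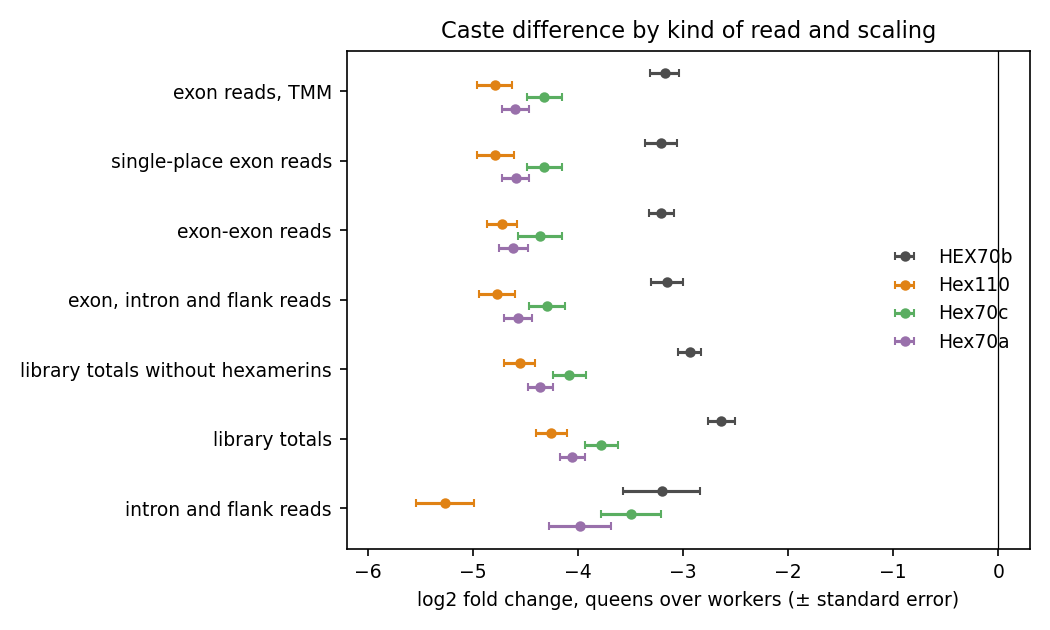
Log2 fold change, queens over workers, with standard error, of each hexamerin gene by kind of read and by scaling. Every value is below 0, and HEX70b lies nearest to 0 in each row drawn, though not for intron and flank reads without queen sample 2, from -2.63 with library totals to -3.21 with single-place exon reads.

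The genes next to the hexamerin genes were read in the same fit. The 3 nearest genes with a position on each side of the Hex70 cluster and of Hex110, and a gene within the cluster, make 13 genes, of which 11 were tested. Of these, 0 were called higher in workers (background 12%) and 3 were called higher in queens (background 6.32%). At so few genes a count of 0 is close to the background share, and it is not read as a feature of the neighbours. The log2 fold changes of all 11 lay between -1.22 and 1.10. LOC409353, whose region meets that of Hex70a, had 116 and 118 RPKM in queens, against 59.5 and 47.6 RPKM in workers, with a log2 fold change of 0.61 (SE 0.13, adjusted p = 0.033). JhI-1, on the other side of Hex70c, is named after a Drosophila gene induced by juvenile hormone. It had 49.3 and 51.6 RPKM in queens, against 17.7 and 15.3 RPKM in workers, with a log2 fold change of 1.10 (SE 0.13, adjusted p = 0.0057). At an unadjusted p below 0.05 in edgeR 4 of the 11 were higher in queens and 1, TpnCIIa, higher in workers, and the Wald test of DESeq2 also called 3 and 0. Without worker sample 2 none of the 11 was called, and without worker sample 1 only JhI-1 was. With library totals 7 were called higher in queens (background 47.3%) and none higher in workers.

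Of the other genes on that scaffold, LOC726811 had a log2 fold change of 0.21, betaggt-II, which in Drosophila encodes a subunit of an enzyme that attaches lipid anchors to proteins, had -0.07 (0.47 with library totals), LOC100578517 had 0.73 and sn, the fascin that bundles actin in Drosophila, had 0.54. None of these was called. LOC100578605, whose region overlaps that of HEX70b, has no exon length in the table and had 3 and 1 reads in its whole region in queens, against 0 and 1 in workers. Next to Hex110, Miro, a GTPase of mitochondrial transport in Drosophila, showed a log2 fold change of 0.45 (SE 0.10, adjusted p = 0.040), and this call was lost when any 1 of the 4 samples was left out. TpnCIIa, a troponin C of muscle whose region overlaps that of Hex110, had 31 and 22 exon reads in queens, against 34 and 55 in workers, and a log2 fold change of -1.22 (0.37, adjusted p = 0.078). RnpS1, a splicing factor, had 0.12, LOC551683 had -0.15 (0.39 with library totals) and LOC408308 had -0.09 (0.45 with library totals), none of them called. LOC100578540 had 0 and 0 exon reads in queens, against 2 and 0 in workers, and was not tested. No use of strand is stated for the counting, so reads of overlapping genes cannot be told apart.

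**Figure D5:**
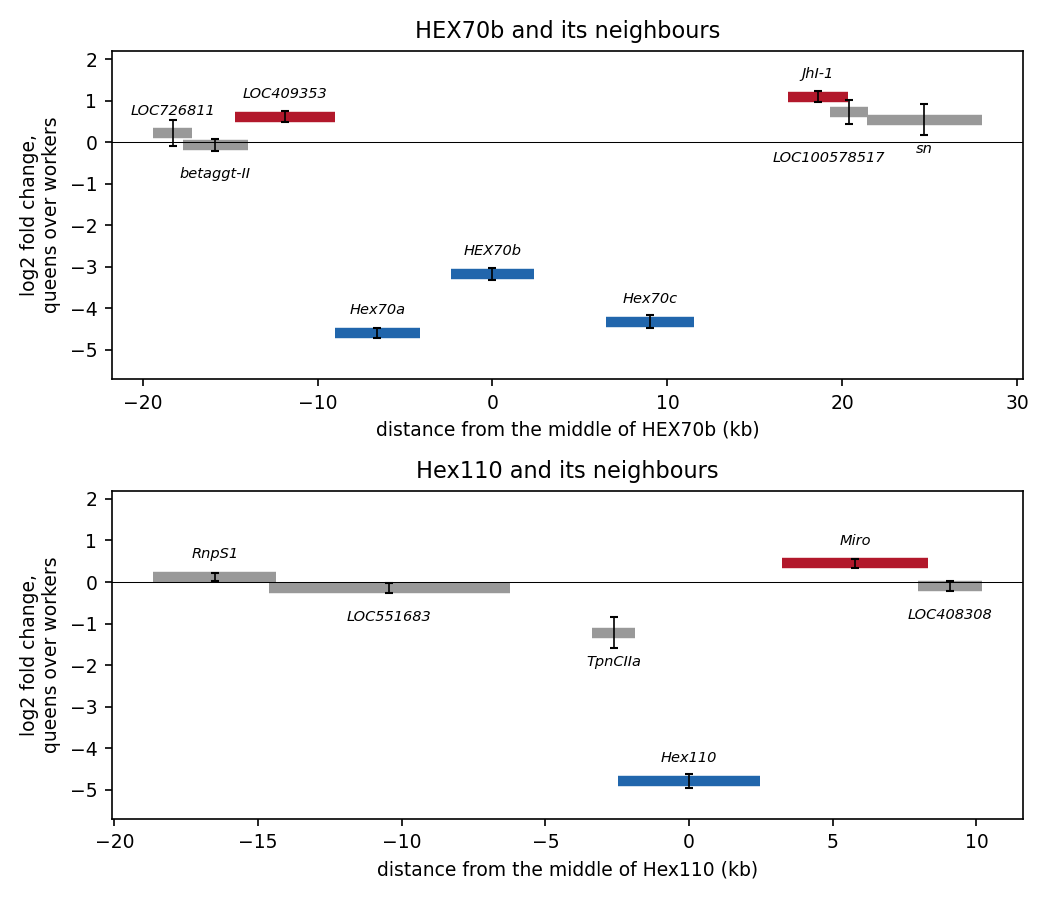
Log2 fold change, queens over workers, with standard error, of the hexamerin genes (blue) and their tested neighbours against the distance from the middle of HEX70b (above) and of Hex110 (below) in kilobases. Bars span each gene's region, red neighbours were called higher in queens and grey ones were not called, and the hexamerin genes lie between -4.79 and -3.17 while all neighbours lie between -1.22 and 1.10.

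The genes whose pattern over the 4 samples was most like the mean of the hexamerin genes were found from log2 CPM (reads scaled to equal effective library sizes), centred on each gene's mean, by the root-mean-square distance. The 5 nearest were LOC725922 (0.144), LOC100577161 (0.148), LOC725217 (0.197), LOC100578007 (0.229) and LOC408564 (0.254). The distances of the members themselves were 0.079 for Hex70c, 0.206 for Hex70a, 0.288 for Hex110 and 0.523 for HEX70b, and 27 other genes lay within the distance of HEX70b. All 5 had a lower RPKM than each hexamerin gene in every sample. LOC100578007 had only 0 and 1 exon reads in queens, against 31 and 39 in workers. Its log2 fold change in edgeR was -6.23, beyond those of the hexamerin genes, and its log2 CPM in queens rests on the prior count of 2. LOC100577161 had 9 and 11 exon reads in queens, against 190 and 193 in workers. LOC725922 had 1.70 and 2.02 RPKM in queens, against 23.4 and 26.0 RPKM in workers. LOC725217, the highest of the 5, had 18.9 and 14.3 RPKM in queens, against 256 and 218 RPKM in workers.

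Most listed genes of other fat body and haemolymph proteins were also lower in queens. Of 11 symbols listed, 8 were found and tested, with 6 calls towards workers (12% of all tested genes) and none towards queens (6.32% of all). The median log2 fold change of the list was -1.83 (all tested genes 0.01). This list and those below were chosen with earlier results of these data known. Their counts and medians are therefore not a test of the lists. Rfabg, the precursor of the lipoprotein that carries lipids in the haemolymph, had 489 and 490 RPKM in queens, against 1375 and 1272 RPKM in workers, with a log2 fold change of -1.95 (SE 0.10, adjusted p = 6.3e-04). A4 had 845 and 849 RPKM in queens, against 1877 and 1980 RPKM in workers, with a log2 fold change of -1.70 (SE 0.09, adjusted p = 6.9e-04), and 49.98% of its exon reads matched a single place. Vg, the yolk protein vitellogenin, was called with 2 and 8 exon reads in queens, against 862 and 556 in workers. Vhdl was called with 1 and 2 exon reads in queens, against 1171 and 896 in workers. LOC406147 was called with 36 and 63 exon reads in queens, against 43052 and 50851 in workers. Fer2LCH, a chain of the iron store ferritin, had -0.62 (0.14, adjusted p = 0.037), a call that was lost with library totals, without queen sample 1 and without worker sample 2. Fer1HCH, the other chain, had -0.68 (0.19, adjusted p = 0.062). In RPKM Fer2LCH had 665 and 699 in queens, against 654 and 809 in workers. Fer1HCH had 438 and 475 RPKM in queens, against 426 and 600 RPKM in workers. With library totals their log2 fold changes were -0.08 for Fer2LCH and -0.14 for Fer1HCH. PPO, the prophenoloxidase of melanin formation, had 9.11 and 7.45 RPKM in queens, against 21.0 and 6.50 RPKM in workers. The RPKM of the castes overlapped for both ferritin chains and PPO. The summed RPKM of the list ranged from 2452 to 2532 in queens and from 11686 to 13458 in workers, and without LOC406147, which held most of the worker sum, it was 2446 and 2520 in queens, against 4417 and 4715 in workers. The part of the amount of fat body in the difference of the hexamerin genes was not tested.

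Markers of other tissues were read in the same libraries. All 4 muscle genes found, of 8 listed, were called higher in workers, as were 12% of all tested genes (6.32% were called towards queens), with log2 fold changes of -3.10 for Mhc1, a myosin heavy chain, -2.0 for TpnT, -1.45 for TpnI and -1.04 for Mlc2, and their summed RPKM ranged from 523 to 560 in queens and from 1117 to 1139 in workers. Of 6 neuron markers 4 were found, 2 were tested and 0 were called by edgeR or by DESeq2 (Syt1 adjusted p = 0.11, AChE-2 adjusted p = 0.074 in edgeR). With TMM factors both were higher in workers at an unadjusted p below 0.05 in edgeR. With library totals the log2 fold changes were -0.32 for Syt1 and -0.005 for AChE-2. The RPKM of AChE-2 overlapped between the castes, with 1.70 and 1.95 in queens against 1.85 and 1.88 in workers. The sums of the neuron markers were 4.39 to 4.74 RPKM in queens and 5.52 to 5.61 RPKM in workers. Of 5 silk gland genes 4 were found and 2 tested, and Fibroin3, a silk protein, was called higher in queens, though not without worker sample 1 or worker sample 2, while Fibroin2 had a log2 fold change of -0.86 (adjusted p = 0.26). The sums were 9.18 to 14.9 RPKM in queens and 4.02 to 4.39 RPKM in workers. All 7 cuticle genes were found and 5 tested, and Apd-2 and CPR14 were called higher in workers, neither of them without worker sample 1 or worker sample 2 and CPR14 not with library totals, with sums of 44.4 to 112 RPKM in queens and 71.5 to 104 RPKM in workers. Apd-1 had no reads. The part of these tissues in the hexamerin differences was not tested.

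Genes of juvenile hormone and ecdysteroid signalling moved in both directions. Of 16 listed 13 were found and tested, 3 were called higher in queens (6.32% of all tested genes) and 3 higher in workers (12% of all), and the median log2 fold change was -0.06 (0.48 with library totals, which called 4 and 3, beside 47.3% and 6.2% of all tested genes). CYP15A1, which makes the epoxide of juvenile hormone, had a log2 value of 1.61 (SE 0.10, adjusted p = 0.0011). Kr-h1, a transcription factor induced by juvenile hormone, had 32.2 and 25.4 RPKM in queens, against 7.39 and 8.49 RPKM in workers, with a log2 fold change of 1.34 (SE 0.21, adjusted p = 0.014). Hr46, a nuclear receptor of the ecdysone response, had 1.32 (0.33, adjusted p = 0.048). Jhe, the esterase that degrades juvenile hormone, had -6.24 (0.20, adjusted p = 2.2e-04). E74 had -1.19 (0.18, adjusted p = 0.012) and Br-c had -1.44 (0.17, adjusted p = 0.0059), and both are transcription factors of the ecdysone response in Drosophila. Without worker sample 1, and likewise without worker sample 2, only 1 gene of the list was called in each direction, CYP15A1 and Jhe. The call of Hr46 was also lost without queen sample 1 (adjusted p = 0.076), and that of E74 with exon-exon reads (adjusted p = 0.15). The other 7 genes, jhamt, Ecr, Usp, ftz-f1, E75, Hr38 and Tor, were not called by edgeR from the exon reads of all 4 samples with TMM factors, with log2 fold changes between -0.71 for Ecr (adjusted p = 0.054) and 0.43 for Tor (adjusted p = 0.082). Ecr was called higher in workers by the Wald test of DESeq2 (adjusted p = 0.031) and from region reads (adjusted p = 0.017), and Tor higher in queens with library totals (adjusted p = 0.0053). Without queen sample 2 jhamt was called higher in queens and Ecr and ftz-f1 higher in workers, and without queen sample 1 E75 was called higher in workers.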

How the data were processed

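Total RNA of pooled whole larvae (2 queen and 2 worker samples, grouped by their labels) was sequenced on an Illumina instrument. The authors aligned the reads to the Amel_4.5 assembly using the RNA-seq tool of CLC Genomics Workbench, whose version is not given in the sources used here. The authors deposited read counts per gene for exons, exon-exon boundaries and whole regions, each with and without reads matching several places. They also deposited RPKM values, which divide exon reads by exon length and by reads on genes, and the median coverage of each gene. Intron and flank reads are the difference of region and exon reads. The table's own fold changes and p-values, from the authors' Baggerly test, and a further table of transcripts higher in queens were not used.

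Counts were tested with edgeR 4.0.16 under R 4.3.3 (TMM factors, filterByExpr, quasi-likelihood test, no block, Benjamini-Hochberg adjusted p below 0.05), and standard errors are the fold change over the root of F. For the ratios the HEX70b reads of a sample were its library size. The fit on exon reads was tested on simulated counts with a fixed spread for all genes. The changed genes were drawn from those with higher read counts, with as many raised as lowered. It recovered 72% of 2-fold and 100% of 8-fold changes, with 6 false calls. Recovery at low counts and a shift in library make-up between the castes were not simulated. The ratio fit and the intron fit were not simulated. Log2 CPM used a prior count of 2. Alternatives were library totals with and without the 4 genes, size factors and the Wald test of DESeq2 1.42.0, no filter beyond 1 read, single-place, exon-exon or region reads, the replicate number as a block and each sample left out. Single-place intron reads were added after seeing the data. The named genes were the 4 members, the 3 neighbours on each side and any gene between, the 5 genes most alike, and lists of fat body, hormone, muscle, neuron, silk gland and cuticle genes. Members and lists were chosen with earlier results of these data known. Other tools were Python 3.11.15, pandas 2.3.3, numpy 2.4.6, scipy 1.17.1 and matplotlib 3.10.9. Later-assembly gene order came from RefSeq, without coordinates.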

Additional observations from a re-analysis of the deposited data

How the results depend on the processing

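The 4 hexamerin genes kept their direction and their call under every alternative run, with exon reads, with intron and flank reads and as ratios to HEX70b. Without 1 sample the log2 fold changes ranged from -4.91 to -4.67 for Hex110, -4.67 to -4.51 for Hex70a, -4.48 to -4.17 for Hex70c and -3.25 to -3.09 for HEX70b, with adjusted p up to 0.024. With intron and flank reads they ranged from -5.65 to -4.96, -4.32 to -3.71, -3.79 to -3.24 and -3.92 to -2.72 for the same genes, with adjusted p up to 0.039. A caste left with 1 sample was assumed to vary like the other. The number of called genes moved more. From exon reads 1437 genes were called (495 higher in queens and 942 in workers), against 4191 with library totals alone (3705 and 486), 2048 with totals without the hexamerin genes (1393 and 655) and 688 from exon-exon reads (184 and 504). Leaving out 1 sample gave 259 to 1293. From intron and flank reads 718 were called, against 303 with no filter and 177 to 698 without 1 sample. The share of exon reads on the 4 genes in queens was 2.37% ± 0.178 (SD, n = 2), and 2.15% with single-place reads. Same-numbered samples are different larvae, and their deviations had a correlation of -0.04. With the replicate number as a block 1223 genes were called from exon reads and 564 from intron and flank reads, and no hexamerin call changed. The cause of the changes with scaling, read kind and worker sample was not tested, and fewer genes enter the exon-exon fit (5797 against 7833).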
